A study of Homo sapiens with 2 samples.

Results

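hsa-miR-4454, hsa-miR-7977, hsa-miR-7975, hsa-miR-5100, hsa-miR-1260a and hsa-miR-1260b are 6 short human RNAs listed as microRNAs (miRNAs), most of which end like a transfer RNA (tRNA). They were followed in exosomes, the small membrane vesicles shed by cells, of a pair of HuH-7 cultures. The species prefix hsa is left out of most names below. The members were chosen by name in the scanner output of a miRNA array, where each has 1 spot, and they make up 6 of 2565 miRNA probes. Earlier results of these data, in which all but the miR-1260 pair had been named among the brightest probes, guided that choice, so their brightness is given as a description.

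HuH-7 is an established human hepatocellular carcinoma line. The samples were exosomes of a culture named HuH-7-P and of a culture named HuH-7-M, and what P and M stand for is not stated in the labels. No allele, transgene or added agent is named for either. Both cultures grew in serum-supplemented DMEM with penicillin and streptomycin, were changed to advanced DMEM, and gave vesicles pelleted from filtered supernatant by ultracentrifugation. The title of the series concerns liver cancer cells that metastasise within the liver, and the question is how the vesicle miRNAs of HuH-7-M differ from those of HuH-7-P. There was 1 array per culture, so no difference below has a replicate and none could be tested. The hepatocyte miRNA miR-122-5p read 99.7 in HuH-7-P and 126 in HuH-7-M, above the limits of 62.3 and 61.2 drawn from BLANK spots.

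Transfer RNAs deliver amino acids to the ribosome. After transcription an enzyme adds the bases CCA to the 3′ end of each, where the amino acid is attached, and cleavage near that end releases small RNAs that also end in CCA. Such fragments are common in the RNA of extracellular vesicles, and several sequences first listed as miRNAs resemble them. A canonical miRNA, by contrast, is cut from a hairpin precursor and pairs with its targets through its seed, bases 2 to 8.

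The mature sequences, from RefSeq (GRCh38.p14), are shown because both the shared 3′ ends and the separate 5′ ends matter for what follows. They run 5′ to 3′, with the seed in capitals.
miR-4454: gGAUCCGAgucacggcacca
miR-7977: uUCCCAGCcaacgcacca
miR-7975: aUCCUAGUcacggcacca
miR-5100: uUCAGAUCccagcggugccucu
miR-1260a: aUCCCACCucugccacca
miR-1260b: aUCCCACCacugccaccau

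The seeds divide the 6 into 5 groups. Only miR-1260a and miR-1260b share one, UCCCACC, and RefSeq lists no other mature miRNA with it. Each of the other 4 seeds occurs in 1 RefSeq miRNA. The group is therefore no seed family, and what most of its members have in common lies at the other end.

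miR-4454, miR-7977, miR-7975 and miR-1260a end in CACCA. miR-1260b carries the same run followed by 1 further base. miR-5100 does not contain CACCA and ends in CCUCU in the sequence above, so the description as tRNA-end-like rests on the other 5. No tRNA sequences were used here, and no member was matched to a tRNA. The capitals in the next lines mark that run.
miR-4454: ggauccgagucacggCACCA
miR-7977: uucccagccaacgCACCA
miR-7975: auccuagucacggCACCA
miR-1260a: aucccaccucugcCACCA
miR-1260b: aucccaccacugcCACCAu

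An ending in CACCA was rare. Of 2565 miRNA probes, 2264 (88.3%) were matched by name to a RefSeq mature sequence. Among those, 43 (1.90%) ended in CCA, with median readings of 76.0 in HuH-7-P and 78.0 in HuH-7-M, members included. Only 6 (0.265%) ended in CACCA. Besides the 4 members, these were miR-4252 and miR-876-5p, shown here with the run in capitals.
miR-4252: ggccacugagucagCACCA
miR-876-5p: uggauuucuuugugaauCACCA
miR-4252 read 88.8 in HuH-7-P and 83.9 in HuH-7-M, near the 86.9 and 89.9 limits of a second control, the No Probe spots. miR-876-5p read 55.9 and 55.3, below the BLANK limit on both arrays. The 4 members with the same ending read from 2330 to 34236. Since members were chosen with brightness known and probes differ in binding, nothing is read from this contrast.

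Longer stretches tied some members together. miR-4454 and miR-7975 share their last 13 bases, the longest run in common between any pair of members. They are shown with that run in capitals.
miR-4454: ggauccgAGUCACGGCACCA
miR-7975: auccuAGUCACGGCACCA
RNA of one could pair with part of a probe for the other, and the arrays cannot tell apart how much of either spot came from each.

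miR-1260a and miR-1260b differ by a single substitution, U9A, counted from the 5′ end with the base of miR-1260a first, and by the extra 3′ base of miR-1260b. Here too RNA of one could pair with much of a probe for the other, so their spots may not be independent.
miR-1260a: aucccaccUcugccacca
miR-1260b: aucccaccAcugccaccaU
The 4th and 2nd brightest members in HuH-7-P, miR-5100 and miR-7977, share 7 bases, and these are the seed of miR-7977 but lie further inside miR-5100.
miR-7977: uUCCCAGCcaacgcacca
miR-5100: uucagaUCCCAGCggugccucu
The remaining pairs share from 4 to 6 bases in a row.

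The RefSeq loci are scattered over 6 chromosomes (GRCh38.p14). miR-4454 lies at chr4:163093607-163093626 on the minus strand, miR-7977 at chr3:176515103-176515120 on the plus strand and miR-7975 at chr19:55123225-55123242 on the minus strand. miR-5100 lies at chr10:42997630-42997651, miR-1260a at chr14:77266231-77266248 and miR-1260b at chr11:96341447-96341465, all on the plus strand. miR-1260a falls within the span of NGB, the neuroglobin gene, and miR-1260b within that of MAML2, which encodes a Notch coactivator. Spans were compared by position alone. Whether these genes lie on the same strand, and whether the positions are exonic or intronic, was not analysed here. No other RefSeq gene span covers the remaining 4.

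The annotated hairpins of miR-7977, miR-1260a and miR-1260b contain CACCA and run on past it. They are shown with the mature part in capitals. The mature miR-7977 starts at base 1 of its 49-base hairpin.
MIR7977: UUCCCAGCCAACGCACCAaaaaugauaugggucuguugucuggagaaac
MIR1260A: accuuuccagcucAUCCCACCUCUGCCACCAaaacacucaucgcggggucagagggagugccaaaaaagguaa
MIR1260B: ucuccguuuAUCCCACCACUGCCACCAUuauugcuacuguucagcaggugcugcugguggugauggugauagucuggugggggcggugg

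Where a miRNA or control is said to read a value, that is its spot median intensity as scanned. A signal is that reading less the average of the 320 BLANK spots on the same array. Differences are the log2 value in HuH-7-M minus that in HuH-7-P, after each array was divided by the median signal of the 1593 miRNAs above the BLANK limit on both arrays. Those medians, 32.5 and 32.1, were nearly equal. Replicate spots of the 3 brightest control probes, 8 spots each, varied within an array with a pooled log2 SD of 0.13. It ranged from 0.07 for Spike Control 2 in HuH-7-P to 0.21 for Spike Control 1 in HuH-7-M. The pooled value gives a spread of 0.18 for a difference between 2 single spots. This spread is itself an SD, so noise alone can exceed it. That spread leaves out any variation between cultures, preparations or hybridisations.

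The members differed in opposite directions between the arrays. miR-4454, miR-5100, miR-7975 and miR-7977 were dimmer in HuH-7-M than in HuH-7-P, and miR-1260a and miR-1260b were brighter. All 6 differences were larger than the spread between control spots, and none reached 2-fold in either direction. The pair that shares a seed thus stood apart from the other 4, although its spots may not be independent, given their near-identical sequences.

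hsa-miR-4454 had a signal of 34176 in HuH-7-P and 27450 in HuH-7-M, a log2 difference of -0.30. It was the brightest miRNA probe on both arrays, and its HuH-7-P spot was the higher.

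hsa-miR-7977, which has been described in vesicles of myeloid leukaemia cells, had a signal of 23666 in HuH-7-P and 16802 in HuH-7-M (-0.48). It ranked 2nd and 3rd.

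hsa-miR-7975, which shares its 3′ part with miR-4454, had a signal of 17975 in HuH-7-P and 12417 in HuH-7-M (-0.52). hsa-miR-5100 had a signal of 17470 and 12095 (-0.51). They stayed next to each other, at ranks 3 and 4 in HuH-7-P and 5 and 6 in HuH-7-M, and their differences were almost the same. Their longest shared run is 4 bases, and the cause of the likeness was not tested.

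hsa-miR-1260b, described in renal cancer cells as a repressor of Wnt inhibitors, had a signal of 7217 in HuH-7-P and 11171 in HuH-7-M (0.65). It ranked 7th on both arrays, and its HuH-7-M spot was the higher.

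hsa-miR-1260a had a signal of 2270 in HuH-7-P and 3836 in HuH-7-M (0.77). It was the dimmest member, at ranks 35 and 31, and like miR-1260b it was higher in HuH-7-M.

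**Figure D1:**
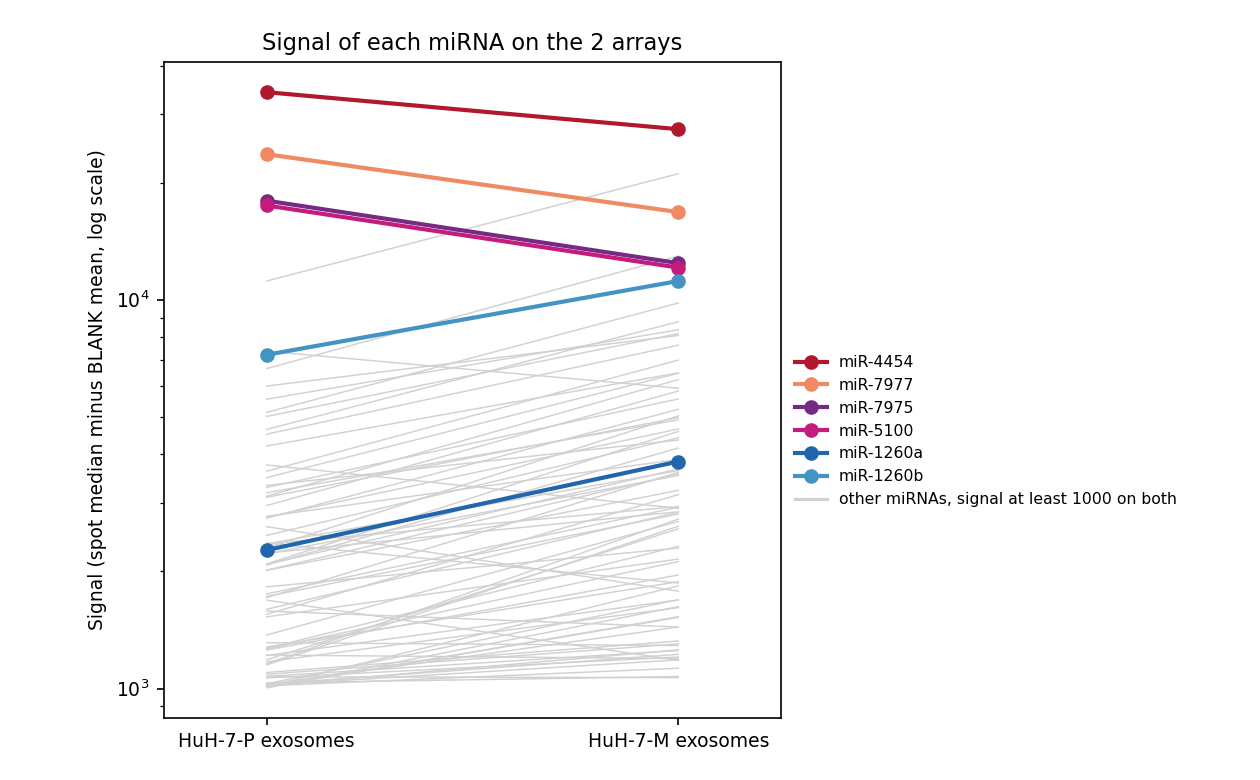
Signal of each miRNA (spot median minus BLANK mean, log scale) on the array of each culture, 1 spot each, with the 6 members in colour and the 72 other miRNAs with a signal of at least 1000 on both arrays in grey. miR-4454, miR-7977, miR-7975 and miR-5100 slope down toward HuH-7-M, while miR-1260a, miR-1260b and most grey lines slope up.

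On HuH-7-P the order by brightness was miR-4454, miR-7977, miR-7975, miR-5100, miR-1260b and miR-1260a. Only the step from miR-7975 to miR-5100 (0.04, log2) was within the spread between spots. The order was the same in HuH-7-M, where the step from miR-5100 to miR-1260b had narrowed from 1.28 to 0.11, also within that spread. Brightness orders spots and not amounts of RNA, since probes bind with different strength.

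Together the 6 members held 24.1% of the summed signal of all miRNA probes in HuH-7-P and 16.4% in HuH-7-M, with signals below 0 counted as 0. The miR-4454, miR-7977, miR-7975 and miR-5100 probes held 21.8% and 13.5%, and the miR-1260 pair 2.22% and 2.95%. The share of the 4 was thus lower in HuH-7-M and that of the pair higher. A share also falls when other probes rise. Without scaling, 65 of the 78 miRNAs with a signal of at least 1000 on both arrays were brighter in HuH-7-M. Vesicle number and RNA per vesicle cannot be told apart in such samples, and a share of each array's own sum measures neither.

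Of the 6 members 0 were lower by 2-fold or more in HuH-7-M exosomes, against 69 of 1593 measured miRNAs (4.33%), and 0 were higher by 2-fold or more, against 59 (3.70%). Below 0 were 4 of 6 members, against 47.3% of all measured miRNAs, and 2 of 6 were above 0, against 52.7%. The median of the 6 was -0.39, beside 0.02 over all measured miRNAs, but it falls between the 4 lower and the 2 higher values and describes neither. The miR-1260 pair lay 1.16 above the other 4 in mean log2 difference. This contrast was chosen after the values were seen, and it is the same under any scaling that multiplies each array by a single factor.

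Bright probes as a class behaved otherwise than all measured probes, so the members were set beside the 78 miRNAs with a signal of at least 1000 on both arrays, which include all 6. Of these 78, 12 (15.4%) lay below 0, and 4 of those 12 were members. The 72 others had a median of 0.67 with quartiles of 0.33 and 0.89, and 64 of them were above 0. This excess depended on the scaling, since 40 were above 0 and 32 below after cyclic loess (median 0.06), 43 and 29 on the Spike Control scale (0.07) and 44 and 25 after quantile normalization (0.08). With median scaling, above 0 were also miR-1260a and miR-1260b, against 84.6% of the 78, and both fell between those quartiles. miR-7975, miR-5100, miR-7977 and miR-4454 had the 2nd, 3rd, 5th and 9th lowest differences of the 78.

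Low values in this class were not confined to the members. The 3 lowest apart from the members were miR-4723-5p (signal 2608 in HuH-7-P and 1780 in HuH-7-M, -0.53), miR-187-5p (1688 and 1183, -0.50) and miR-6765-3p (3759 and 2907, -0.35). All 3 were dimmer than each of the 4 lower members on both arrays. Those 4 ranked 1 to 4 in HuH-7-P and were chosen with brightness known, so nothing is read from this.

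The 5 miRNAs whose pair of signals came closest to the members' median, by distance on the log2 scale over the 2 arrays, were miR-3960, miR-7704, miR-4286, miR-4497 and miR-6089. miR-3960, the nearest, had a signal of 11172 in HuH-7-P and 21094 in HuH-7-M (0.93), and miR-7704 had 6652 and 12951 (0.98). miR-4497 (0.45) and miR-6089 (0.61) were also above 0. Only miR-4286, at 7373 and 5921 (-0.30), was lower in HuH-7-M, by as much as miR-4454.

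The 3 brightest control probes were brighter in HuH-7-M than in HuH-7-P. None of their spots read above 23534 in HuH-7-P, so miR-4454 (34236) and miR-7977 (23726) had no control as bright. Spike Control 1 read 21023 ± 1541 in HuH-7-P and 29935 ± 4171 in HuH-7-M (SD, 8 spots), and Spike Control 2 read 21048 ± 1056 and 33331 ± 1803. The control named S-Probe28 read 12573 ± 1272 and 25020 ± 2076. On the scale used for the members these differences were 0.53, 0.68 and 1.01. The miR-7975 and miR-5100 spots lay between S-Probe28 and the spike controls in HuH-7-P and were lower in HuH-7-M, while the difference of miR-1260b was close to that of Spike Control 2. The part of the array-wide shift of bright spots in the members' values was not tested.

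**Figure D2:**
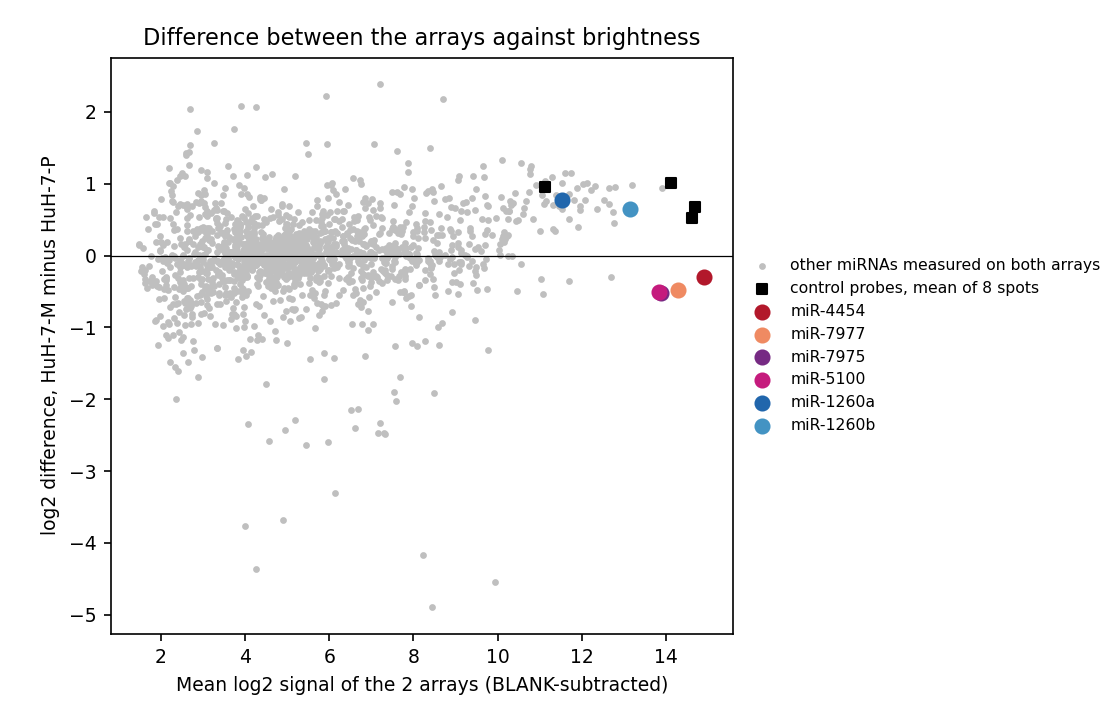
Log2 difference (HuH-7-M over HuH-7-P, median scaling) against the mean log2 signal of both arrays for every miRNA measured on both (grey), the 6 members (colour) and 4 control probes (black squares, mean of 8 spots). At the bright end the controls and most miRNAs lie above 0 together with miR-1260a and miR-1260b, and miR-4454, miR-7977, miR-7975 and miR-5100 lie below, with miR-7975 hidden behind miR-5100.

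The direction of the 4 lower members was negative under each alternative tried, except that quantile normalization, which gives equal ranks equal values, set miR-4454 to 0.00. On the Spike Control scale, where all measured miRNAs had a median of -0.58, miR-7975 (-1.12), miR-5100 (-1.11) and miR-7977 (-1.08) were past 2-fold lower and miR-4454 was -0.90. On that scale 16.3% of all measured miRNAs were past 2-fold lower. After cyclic loess, which draws the bright probes of the arrays together, all 4 were past 2-fold lower, at -1.59 for miR-7977, -1.56 for miR-7975, -1.55 for miR-5100 and -1.53 for miR-4454, against 5.02% of all measured miRNAs. Counted from the lowest of the 78 bright miRNAs, miR-4454 ranked 4, miR-5100 3, miR-7975 2 and miR-7977 1 under that setting. After quantile normalization miR-4454 ranked 31, miR-5100 6, miR-7975 8 and miR-7977 11.

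For miR-1260b the sign depended on the scaling, and for miR-1260a it did not. miR-1260a remained above 0 under each alternative, at 0.09 after quantile normalization, 0.14 after cyclic loess and 0.17 on the Spike Control scale, values within the spread between spots. miR-1260b was 0.05 on the Spike Control scale and 0.00 after quantile normalization, and it turned to -0.26 after cyclic loess. The mean log2 difference of the pair nevertheless stayed above that of the other 4 members, by 0.43 to 1.50 over 13 alternatives. After quantile normalization, with and without normexp, miR-1260b and miR-4454 were level at 0.00.

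**Figure D3:**
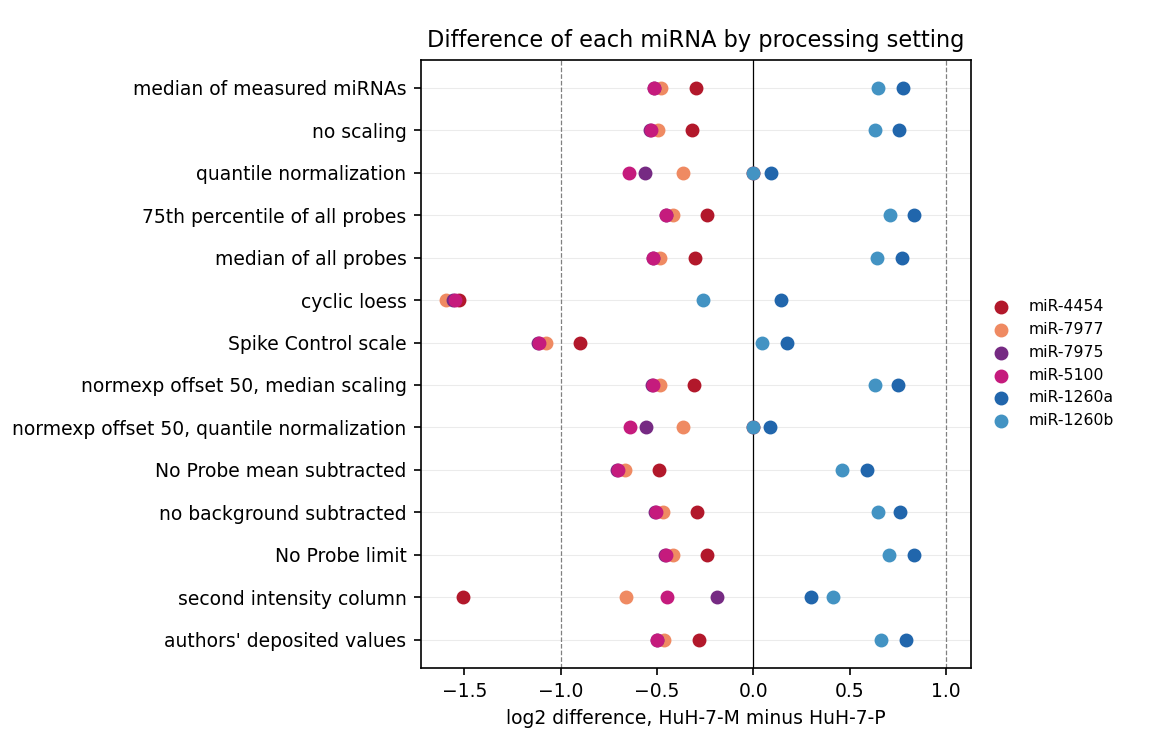
Log2 difference (HuH-7-M over HuH-7-P) of each member under the scaling used here (top line) and 13 alternatives, 1 spot per array; dashed lines mark 2-fold. The blue points of the miR-1260 pair lie to the right of miR-7977, miR-7975 and miR-5100 in every line, and the whole set shifts left after cyclic loess and on the Spike Control scale.

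The members were short and lay at the low end of the bright probes in base composition. Their lengths ran from 18 to 22 bases with 4 members of 18 or 19, against a median of 21 over the 63 other bright miRNAs with a RefSeq sequence. The 149 miRNAs of 18 or 19 bases on the array had median readings of 82.4 in HuH-7-P and 80.2 in HuH-7-M. In the bright class were 16 of them (10.7%), against 69 of all 2264 miRNAs with a RefSeq sequence (3.05%). Members are counted in both, as 4 of the 16 and 6 of the 69. They were chosen with brightness known, so nothing is read from this excess. The share of G and C was 55.6% in miR-7975, 57.9% in miR-1260b, 59.1% in miR-5100, 61.1% in miR-7977 and miR-1260a and 65.0% in miR-4454. The 63 other bright miRNAs had a median of 80.0%.

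Base composition was known only for the 63 other bright miRNAs with a RefSeq sequence, out of 72, and miR-4286 and miR-3960 are not among them. Of those 63, only 4 had a G and C share as low as the members'. Of these, miR-4723-5p was below 0, and miR-4484 (1.04), miR-6780b-5p (1.15) and miR-204-3p (0.91) were above. miR-7977 and miR-1260a have the same share and differed in direction. Across the 63 others, which share the 2 arrays, the share of G and C and the difference had a Pearson r of 0.25 and a Spearman rho of 0.15, given as a description. The part of base composition in the members' differences was not tested.

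**Figure D4:**
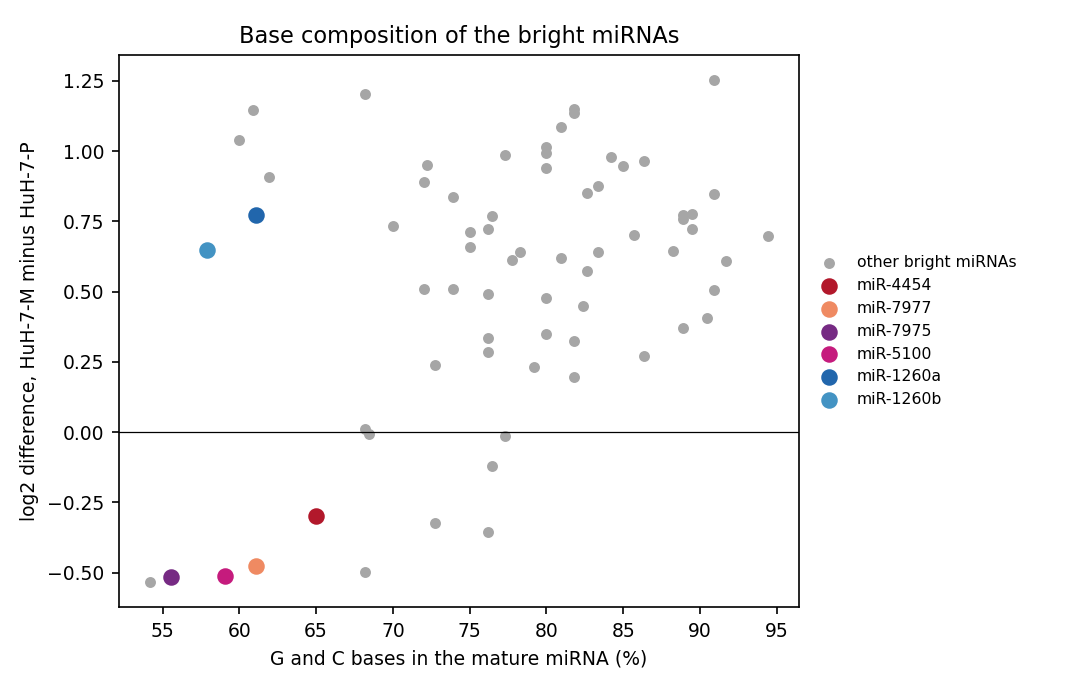
Log2 difference (HuH-7-M over HuH-7-P) against the share of G and C bases for the 6 members and the 63 other bright miRNAs with a RefSeq sequence. The members occupy the low end of base composition, from 55.6% to 65.0%, with 4 of them below 0 and the miR-1260 pair above.

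Outside the members, the probes found by a long shared run were dim. A search by unbroken run can miss close relatives, as the miR-1260 pair itself shares a run of 9 bases. Apart from the members, 2 miRNAs on the array share a run of at least 10 bases with a member, in both cases with miR-1260b, and are shown with that run in capitals.
miR-1229-3p: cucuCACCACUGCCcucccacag
miR-6509-3p: uuCCACUGCCACuaccuaauuu
miR-1229-3p read 146 in HuH-7-P and 184 in HuH-7-M (0.56), and miR-6509-3p read 80.3 and 82.2 (0.21). Both spots were far dimmer than that of miR-1260b on either array. Of the 43 miRNAs ending in CCA, 33 were measured on both arrays, 17 of them below 0 and 16 above. In the bright class were 5 of the 43, and 4 of these were members.

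Of 10 other miRNAs described as overlapping tRNA genes or fragments, 1 was on the array. This was miR-4521, which read 61.7 in HuH-7-P, below the BLANK limit of 62.3, and 62.4 in HuH-7-M, just above its limit of 61.2. No difference is given for it.

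The scanner recorded the brightest spots differently from the rest. Readings of 11109 or more in HuH-7-P and of 11230 or more in HuH-7-M are whole numbers to within 1e-09, and those below are not; the header relates 3 gains of the scanner to one another. miR-4454, miR-7977, miR-7975 and miR-5100 are whole numbers on both arrays, miR-1260a is fractional on both, and miR-1260b is fractional in HuH-7-P and whole in HuH-7-M. miR-3960 and the spike controls, which were brighter in HuH-7-M, are also whole on both. The part of this recording in the differences was not tested. No spot of a member carried a bad-spot entry.

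The files hold a second intensity for each spot, in a column named as background. For miR-4454 it read 42225 in HuH-7-P, above the spot's own reading, and 14128 in HuH-7-M. Used in place of the spot median, it gave -1.51 for miR-4454, -0.66 for miR-7977, -0.45 for miR-5100, -0.19 for miR-7975, 0.30 for miR-1260a and 0.41 for miR-1260b. The directions were those of the spot median, and the sizes were not. From the lowest of the 78 bright miRNAs, miR-4454, miR-7977, miR-5100 and miR-7975 ranked 1, 6, 12 and 19 in that column.

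In the authors' deposited table the values of the 6 members could be found again by matching both arrays to a relative tolerance of 1e-06, and they gave -0.28 for miR-4454, -0.46 for miR-7977, -0.50 for miR-7975 and for miR-5100, 0.66 for miR-1260b and 0.79 for miR-1260a. Only miR-1260a and miR-1260b stand there under the name the scanner output gives. In the authors' deposited table the values of miR-7977 stand in the row named miR-7975, those of miR-7975 in the row named miR-7973, those of miR-4454 in the row named miR-4452 and those of miR-5100 in the row named miR-5571-5p. Read by its own row names, the authors' deposited table gives miR-4454 as 22.2 and 30.4, leaves miR-7977 and miR-5100 blank on both arrays, and gives miR-7975 as 19430 and 14113. The scanner's names were used throughout, and the identity of the 4 lower members rests on that choice.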

How the data were processed

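Exosome RNA of 2 HuH-7 cultures, HuH-7-P and HuH-7-M, was labelled with Cy5 by the authors and hybridised to a 3D-Gene miRNA array, 1 per culture, per the labels' protocols. The deposited scanner files list intensity values for 3200 spots, per the file headers, as a spot median with no background subtracted; the sources used here do not name the scanner software. The authors also deposited a table of scaled intensity values.

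The mean of 320 BLANK spots was subtracted. A miRNA counted as measured where its reading on both arrays lay over 2 SD above the BLANK mean (5% of BLANK spots left out at each end). Arrays were scaled to the median of the measured miRNAs rather than by quantile normalization, which fixes the brightest probe at no difference. Quantile normalization, cyclic loess and normexp (nec, offset of 50) were run in limma 3.58.1 (R 4.3.3) as alternatives, with cyclic loess over the measured miRNAs only. The scaling was tested on simulated data in which a single factor separated the arrays at every brightness. Such data cannot test it where bright spots shift differently from the rest. Sequences are RefSeq's, matched by name.

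Named miRNAs are the members, their relatives by ending (CACCA), shared run (10 bases or more) or seed, the 5 nearest in signal, the 3 lowest others of the bright class and the measured members of a tRNA list; miR-122-5p, miR-4484, miR-6780b-5p, miR-204-3p and miR-4521 were added after their values were seen. The members, lists and settings were chosen with earlier results of these data known. With 1 array per group no test was made, and the number of arrays limits the precision.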

Additional observations from a re-analysis of the deposited data

How the results depend on the processing

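Of 12 other settings and the second intensity column, which was added after seeing the data, most left the median difference of the 6 members near -0.39. It moved by more than the spread between spots under quantile normalization (-0.18, and -0.18 with normexp and an offset of 50), cyclic loess (-1.54), the Spike Control scale (-0.99) and subtraction of the No Probe mean (-0.58). Under that subtraction only 949 of the measured miRNAs kept a signal above 0 on both arrays, and their median was -0.20. The number of members at least 2-fold lower, 0 in the analysis reported, was 4 after cyclic loess, 3 on the Spike Control scale and 1 in the second intensity column. miR-1260b reversed after cyclic loess (-0.26). Without background subtraction the members' share of the summed signal was 17.8% in HuH-7-P and 12.8% in HuH-7-M. Over members and alternatives, 49 differences moved by less than the spread between spots, 28 moved by more, 24 of them with their sign kept and 4 to exactly 0 (miR-4454 and miR-1260b under quantile normalization with and without normexp), and 1 reversed. The cause of these changes was not tested. In several alternatives, such as no scaling, the No Probe limit and the authors' deposited values, the arrays were scaled almost as in the analysis reported. Those could hardly move a bright spot, so the 49, like the alternatives that left the median near -0.39, are no measure of stability. No paired analysis was possible because each group holds 1 array. Signal over background was no limit for the members, which read at least 37.4 times the BLANK limit in HuH-7-P and 63.7 times in HuH-7-M.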
